A study of Ovis aries with 10 samples.

Results

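The circadian clock genes CLOCK, NPAS2, PER1, PER2, PER3, CRY1, CRY2, NR1D1, NR1D2 and DBP were followed in RNA sequencing libraries of the mediobasal hypothalamus of the ewe. They are the core loop and one output gene of the circadian clock, and were chosen by symbol in a table of read counts per gene. All 10 were found among the 33775 genes of the table, and all 10 passed the filter on low counts, which left 18276 genes for testing. The ewes were adults of the Ile-de-France breed, 10 of them follicular and 10 luteal by the phase of their ovarian cycle, and the series title names the effect of progesterone as its subject. Within each phase RNA was mixed at random in pairs of ewes, so that each phase has 5 libraries and every ewe contributed to 1 library. The labels name no treatment and give no time of day at which tissue was taken.

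The molecular clock is a loop of transcription factors that cycles with a period of about a day in most cells. CLOCK or its paralogue NPAS2 pairs with BMAL1 and switches on the PER, CRY, NR1D and DBP genes through E-box elements, and the PER and CRY proteins then repress that pair. NR1D1 and NR1D2, also called REV-ERB alpha and beta, repress BMAL1 while ROR receptors activate it, and DBP, TEF and HLF compete with the repressor NFIL3 at D-box elements. In sheep the pars tuberalis, which adjoins this part of the hypothalamus, is known for clock genes that follow the melatonin signal, CRY1 among them.

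Library totals ran from 20644992 to 43193449 reads. Follicular 1 and 3 were the shallowest libraries, with 21092056 and 20644992 reads, and had the largest shares of reads in 30 ribosomal protein genes, 3.92% and 3.93%, against 2.17% to 3.58% in the other 8 libraries. Genes of the arcuate nucleus and median eminence list were present, with POMC at 404.6 to 1371 CPM and TAC3 at 201.5 to 314.8 CPM. KISS1 of that list was at 9.04 to 44.2 CPM and NR5A1 at 1.80 to 5.58 CPM. CPM are a gene's counts scaled to the library's total after TMM normalisation. They are not corrected for gene length, so they are compared between libraries and not between genes. Pars tuberalis markers were present too, with TSHB at 82.5 to 647.9 CPM, CGA at 1014 to 2383 CPM and EYA3 at 100.9 to 2905 CPM. They did not move together: in luteal 1 TSHB was at its highest and EYA3 at its lowest, and EYA3 was highest in luteal 4. Of 10 markers of the suprachiasmatic nucleus, the seat of the master clock, 7 had reads in every library, and the summed level of the list was 53.8 to 63.6 CPM in follicular and 44.9 to 75.8 CPM in luteal libraries. Among them RGS16 reached 18.5 to 38.9 CPM, SIX6 17.0 to 26.8 CPM and VIPR2 4.58 to 10.6 CPM, while the neuropeptide genes VIP and PROK2 had 26 and 7 reads over all 10 libraries together. Since these are bulk samples, fewer cells of a type and less RNA per cell cannot be told apart.

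None of the 10 clock genes differed between the phases after adjustment over all genes. CRY1 averaged higher in luteal libraries by the widest margin, and PER3, PER2, NR1D2, PER1 and CRY2 also averaged higher. DBP, NR1D1, CLOCK and NPAS2 averaged lower. Within a phase the same genes varied from library to library by up to 3.85-fold, as the plot of CPM by library shows. The groups overlapped for every member, so that 0 of 10 members had phases without overlap, against 1.12% of all genes tested.

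**Figure D1:**
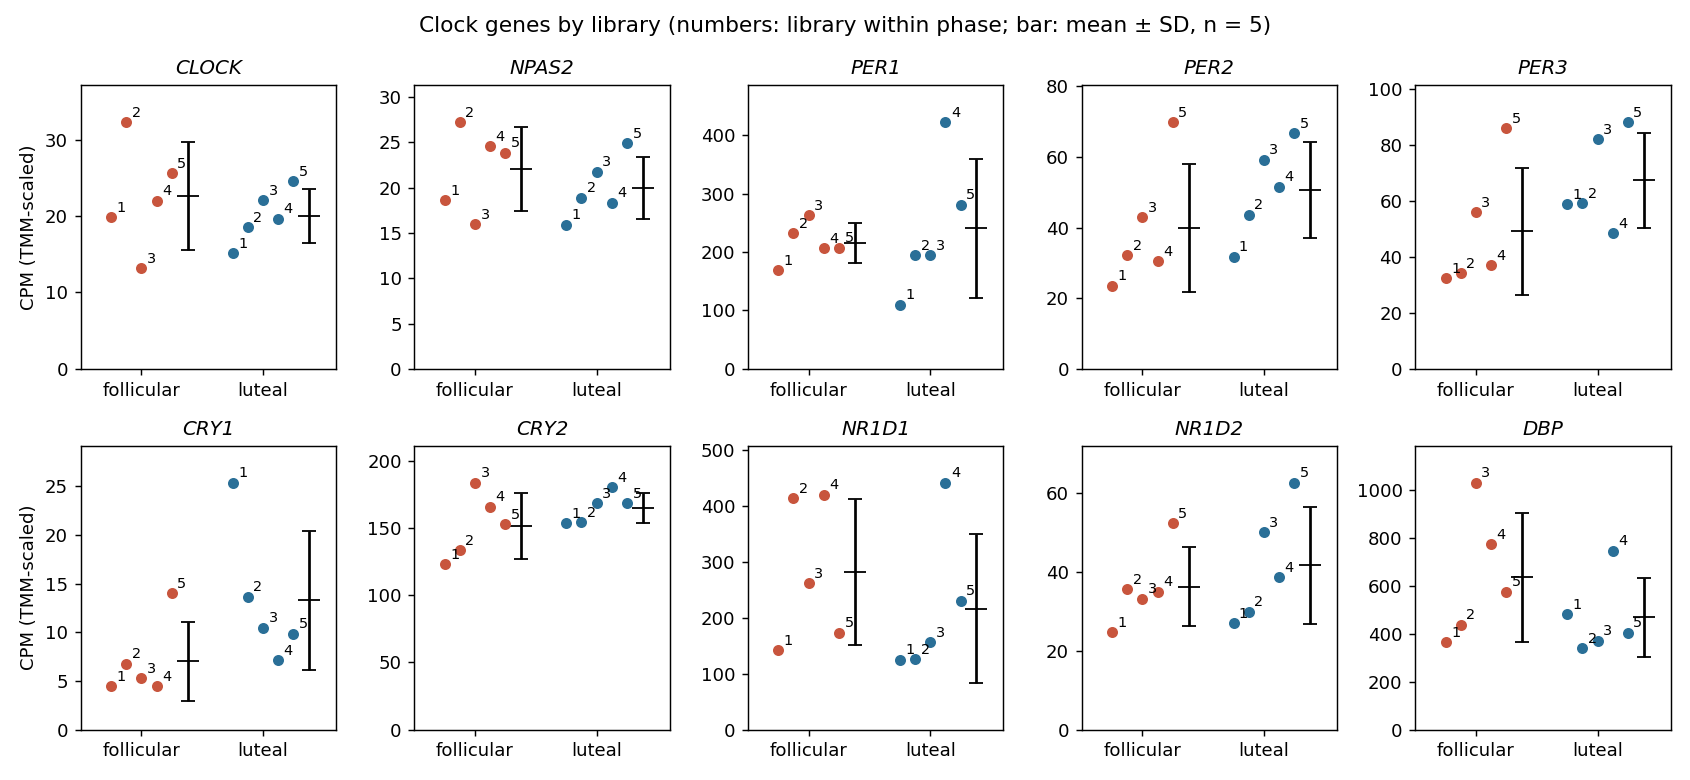
CPM of each clock gene in the 5 follicular (red) and 5 luteal (blue) libraries, one point per library, numbered within its phase, with the mean ± SD (n = 5) in black. The phases overlap in all 10 panels, and single libraries such as luteal 4 for PER1 (422 CPM) and luteal 1 for CRY1 (25.3 CPM) lie far from the others of their phase.

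The activators of the loop, CLOCK and NPAS2, are paralogous transcription factors that can replace each other as partner of BMAL1. CLOCK measured 19.8, 32.3, 13.2, 22.0 and 25.6 CPM in follicular libraries 1 to 5 and 15.2, 18.5, 22.1, 19.6 and 24.6 CPM in luteal libraries 1 to 5. NPAS2 measured 18.6, 27.3, 16.0, 24.6 and 23.9 CPM in follicular and 15.9, 18.9, 21.8, 18.4 and 24.9 CPM in luteal libraries. Follicular 2 was highest and follicular 3 lowest of the follicular libraries for both genes, and luteal 5 was highest and luteal 1 lowest of the luteal libraries for both. The log2 fold change of luteal over follicular was -0.18 for CLOCK (SE 0.21, 95% interval -0.65 to 0.29; edgeR adjusted p = 0.659). For NPAS2 it was -0.15 (SE 0.17, 95% interval -0.51 to 0.22; edgeR adjusted p = 0.647). Leaving out 1 library at a time moved CLOCK from -0.32 without follicular 3 to -0.0060 without follicular 2, and NPAS2 from -0.24 to -0.05 without the same libraries. Each library held 0.843 to 1.21 NPAS2 reads per CLOCK read, a ratio that is not corrected for gene length and does not compare their levels. How reads that fit both paralogues were counted is not given in the sources used here.

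PER1, PER2 and PER3 encode the period proteins, the repressors of the loop that build up after activation. PER1 is also known as a gene that responds quickly to neuronal activity and glucocorticoids. It measured 168.7, 231.9, 262.6, 206.4 and 207.5 CPM in follicular and 109.6, 194.3, 194.2, 422.4 and 280.7 CPM in luteal libraries. Luteal 1 and luteal 4 were its lowest and highest libraries of all 10, so the luteal values enclosed the follicular ones. The log2 fold change was 0.16 (SE 0.29, 95% interval -0.47 to 0.78; edgeR adjusted p = 0.78). Without luteal 4 it turned to -0.15, and without luteal 1 it was 0.34.

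PER2 measured 23.5, 32.2, 43.0, 30.5 and 69.9 CPM in follicular and 31.7, 43.7, 59.2, 51.6 and 66.7 CPM in luteal libraries. PER3 measured 32.4, 34.1, 56.0, 37.1 and 86.0 CPM in follicular and 58.7, 59.2, 81.9, 48.5 and 88.2 CPM in luteal libraries. For both genes follicular 5 lay above every other follicular library, and among the luteal libraries luteal 5 was highest. The log2 fold change was 0.34 for PER2 (SE 0.28, 95% interval -0.27 to 0.96; edgeR adjusted p = 0.531) and 0.45 for PER3 (SE 0.27, 95% interval -0.15 to 1.05; edgeR adjusted p = 0.447). Without follicular 5 these values rose to 0.65 and 0.76, with edgeR adjusted p of 0.0741 and 0.0606. The lowest values with 1 library left out were 0.21 for PER2, without follicular 1, and 0.34 for PER3, without luteal 5.

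CRY1 and CRY2 encode the cryptochromes, which repress the CLOCK and BMAL1 pair directly. CRY1 measured 4.46, 6.79, 5.31, 4.46 and 14.0 CPM in follicular and 25.3, 13.7, 10.5, 7.11 and 9.87 CPM in luteal libraries. Each luteal library lay above 4 of the 5 follicular libraries, and follicular 5 lay inside the luteal range. The CRY1 mean was 7.01 ± 4.04 CPM for the follicular and 13.3 ± 7.13 CPM for the luteal phase (SD, 5 libraries each). The log2 fold change was 0.91 (SE 0.39, 95% interval 0.05 to 1.77), with an unadjusted p of 0.0399 and an edgeR adjusted p = 0.426. It was 1.34 without follicular 5, 0.54 without luteal 1 and 0.65 without follicular 1 and 3, with edgeR adjusted p of 0.0606, 0.378 and 0.994. Without follicular 5 PER3 had the same adjusted p as CRY1, and 0 of all 18201 genes tested passed. The span of CRY1 overlaps that of MTERF2, a gene for a mitochondrial protein, and reads of the pair may not be told apart. MTERF2 measured 13.02 to 24.7 CPM (log2 fold change 0.30, SE 0.17; edgeR adjusted p = 0.434) and had a phase-centred r of 0.63 with CRY1 (exact permutation p = 0.0653, adjusted p = 0.196 over 3 overlapping pairs, n = 10 libraries; rho = 0.59, exact permutation p = 0.104). Without follicular 5 and luteal 1 that r was 0.50.

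CRY2 was the steadiest of the 10. It measured 122.9, 133.5, 183.8, 166.0 and 152.9 CPM in follicular and 153.8, 154.3, 168.6, 180.2 and 168.7 CPM in luteal libraries. All 5 luteal values lay between the median and the highest follicular value. For CRY2 the log2 fold change was 0.12 (SE 0.12, 95% interval -0.13 to 0.37; edgeR adjusted p = 0.58), so the interval spans 0.913-fold to 1.30-fold. It was 0.058 without follicular 1 and 0.20 without follicular 3.

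NR1D1 and NR1D2 encode the REV-ERB nuclear receptors, which repress BMAL1. NR1D1 measured 142.4, 414.2, 262.0, 419.8 and 173.0 CPM in follicular and 124.9, 125.9, 156.4, 441.6 and 230.9 CPM in luteal libraries. Follicular 2, follicular 4 and luteal 4 stood at 414.2 CPM or more, and no other library exceeded 262.0 CPM. For NR1D1 the log2 fold change was -0.39 (SE 0.40, 95% interval -1.26 to 0.49; edgeR adjusted p = 0.609), and -0.82 without luteal 4 (edgeR adjusted p = 0.322). It was -0.20 without follicular 2 and also without follicular 4. The span of NR1D1 overlaps that of THRA, a thyroid hormone receptor gene, in the reference gene table, and the strand setting of the counting is not known. THRA stayed between 336.9 and 425.0 CPM, while NR1D1 ran from 124.9 to 441.6 CPM (phase-centred r between them = -0.15, exact permutation p = 0.732, n = 10 libraries; rho = -0.13, exact permutation p = 0.755). Without follicular 4 and luteal 4 that r was -0.33.

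NR1D2 measured 24.7, 35.5, 33.2, 34.9 and 52.3 CPM in follicular and 27.0, 29.9, 50.0, 38.5 and 62.5 CPM in luteal libraries. Its pattern had the same highest libraries as PER2 and PER3, follicular 5 and luteal 5. For NR1D2 the log2 fold change was 0.20 (SE 0.25, 95% interval -0.34 to 0.74; edgeR adjusted p = 0.664). It was 0.0090 without luteal 5 and 0.37 without follicular 5.

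DBP encodes a D-box transcription factor that carries the rhythm to output genes. It measured 364.5, 437.3, 1029, 773.0 and 574.3 CPM in follicular and 481.1, 339.8, 370.0, 746.3 and 404.3 CPM in luteal libraries. Follicular 3 and luteal 4 were the highest of their phases, and the other 4 luteal values did not exceed 481.1 CPM. Luteal over follicular, the log2 fold change was -0.44 (SE 0.29, 95% interval -1.08 to 0.20; edgeR adjusted p = 0.465). It was -0.67 without luteal 4 and -0.20 without follicular 3.

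By the edgeR quasi-likelihood test 0 of the 10 members passed at an adjusted p of 0.05, and of all 18276 genes 0 passed as well, a background of 0.00%. At an unadjusted p under 0.05 there was 1 member, CRY1, which was higher in luteal libraries, against 11.4% of all genes (4.27% higher and 7.12% lower). DESeq2 called 0 members and 0.227% of the genes it tested, and limma-voom called 0 of either. Limma-voom with quality weights, a fit in which less variable libraries count for more, called 3 members, CRY1 and PER3 higher and NR1D1 lower in luteal libraries. This share lies near its background of 32.1% over all genes. When edgeR was also given the leading principal component of the phase-centred values as a term it called 0 members and 28.0% of all genes. Without follicular 1 and 3 the log2 fold changes of the members ran from -0.63 for NR1D1 to 0.65 for CRY1, with the same signs as over all 10 libraries and an edgeR adjusted p of 0.994 for each. Of the members 6 had a fold change above 0, where 51.5% of all genes did, and the median log2 fold change was 0.14 over the members and 0.01 over all genes tested.

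**Figure D2:**
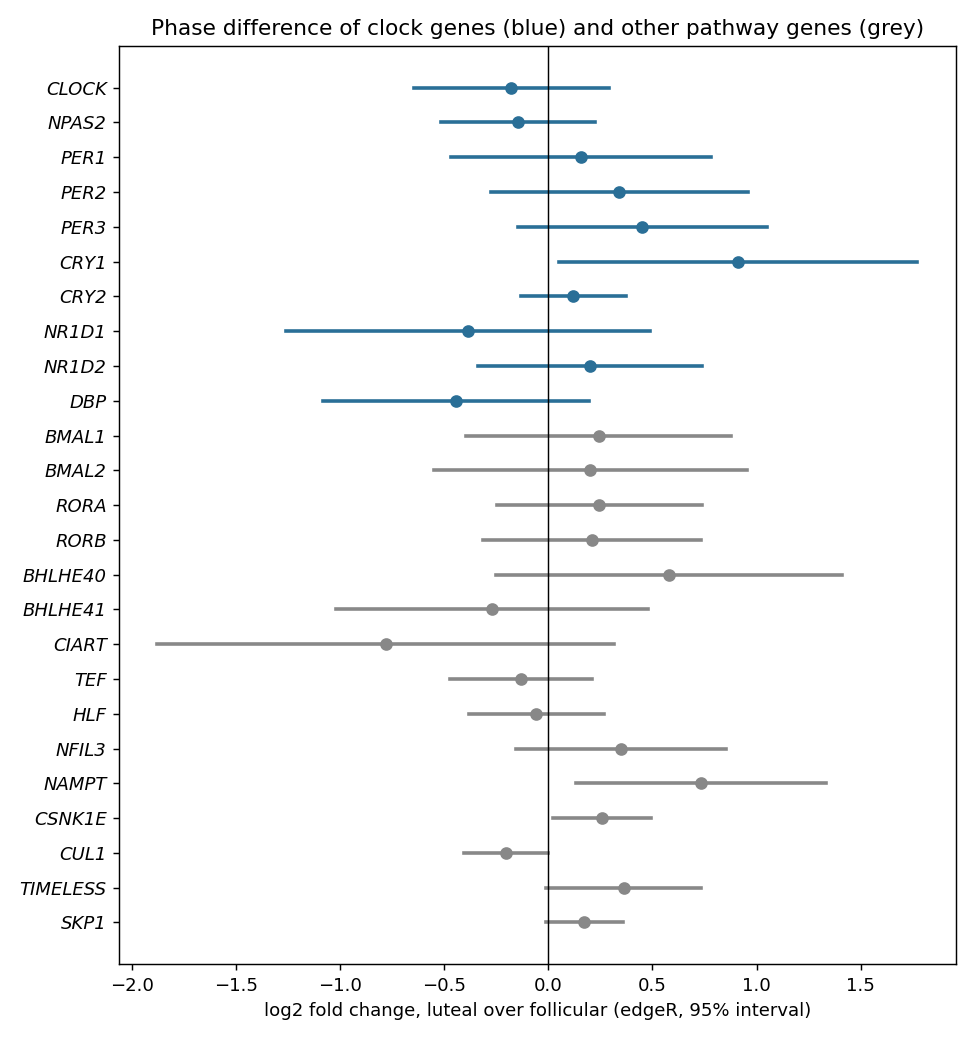
Log2 fold change of luteal over follicular libraries (points) with 95% intervals (lines) for the 10 clock genes in blue and 15 other genes of the clock pathway in grey. CRY1 has the highest value among the clock genes (0.91), its interval starts at 0.05, and the intervals of the other 9 clock genes include 0.

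Of a list of 40 other clock pathway genes 39 were tested, 25 averaging higher and 14 lower in luteal libraries with a median log2 fold change of 0.12. No gene of the list passed edgeR in either direction, and 4 had an unadjusted p under 0.05, NAMPT, CSNK1E and CUL1 among them. These 4 are 10.3% of the list, against 11.4% of all genes tested. NAMPT, the enzyme that limits NAD synthesis, had a log2 fold change of 0.73 (SE 0.28). CSNK1E, a kinase of the PER proteins, had 0.26 (SE 0.11), and CUL1, a ubiquitin ligase scaffold, -0.20 (SE 0.09). The edgeR adjusted p of these 4 was 0.426. SKP1, which binds CUL1 in ubiquitin ligases, was the 1 list gene whose phases did not overlap (2.56% of the list, against 1.12% of all genes tested), at 200.4 to 240.2 CPM in follicular libraries and 241.5 to 268.5 CPM in luteal ones. Its log2 fold change was 0.17 (SE 0.08; edgeR adjusted p = 0.426). TIMELESS, the mammalian homologue of a fly clock gene, had a log2 fold change of 0.36 (SE 0.17; edgeR adjusted p = 0.426).

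Among the transcription factors of the loops, CIART, a repressor of the CLOCK and BMAL1 pair, had the largest fitted difference, at 9.94, 28.1, 46.5, 47.2 and 31.8 CPM in follicular and 10.4, 9.32, 11.3, 48.2 and 16.0 CPM in luteal libraries. In 4 of 5 luteal libraries CIART lay below 4 of the 5 follicular ones, and luteal 4 was the highest of all 10. Its log2 fold change was -0.78 (SE 0.50, 95% interval -1.88 to 0.32; edgeR adjusted p = 0.459). BHLHE40, also a repressor of the loop, had 0.58 (SE 0.38) and its paralogue BHLHE41 had -0.27 (SE 0.34). BMAL1, the partner of CLOCK, listed in the table under its older symbol, had a mean of 17.8 ± 7.06 CPM for the follicular and 21.0 ± 6.06 CPM for the luteal phase (SD, 5 libraries each). Its log2 fold change was 0.24 (SE 0.29), and its paralogue BMAL2 had 0.20 (SE 0.34). The log2 fold changes of RORA and RORB, receptors that activate BMAL1, were 0.24 and 0.21. For the D-box factors TEF, HLF and NFIL3 they were -0.13, -0.06 and 0.35. For these 10 factors the edgeR adjusted p ran from 0.459 to 0.850.

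The spread within a phase was wide for most clock genes. NR1D1 had a coefficient of variation of 46.3% in follicular and 61.7% in luteal libraries, CRY1 of 57.6% and 53.6%, and CRY2 of 16.1% and 6.75%. The within-phase SD of log2 CPM was 0.74 for NR1D1, 0.68 for CRY1, 0.54 for PER1, 0.53 for DBP, 0.52 for PER2, 0.49 for PER3, 0.45 for NR1D2, 0.39 for CLOCK, 0.28 for NPAS2 and 0.18 for CRY2. The median of these was 0.50, against 0.31 over all genes tested and 0.25 over the 13007 genes with a mean of at least 5 CPM. Over all genes tested 8 of 10 members lay above the median, 6 above the 75th percentile and 2, NR1D1 and CRY1, above the 90th. Counting error was small beside this: 1 SD of a Poisson count was 10.7% of the count in the library with the fewest CRY1 reads, 87, and 1.19% to 6.35% in the corresponding libraries of the other members. It covers counting error only. For 7 members the coefficient of variation was larger in follicular libraries, and for PER1, NR1D1 and NR1D2 in luteal libraries; these differences were not tested.

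**Figure D3:**
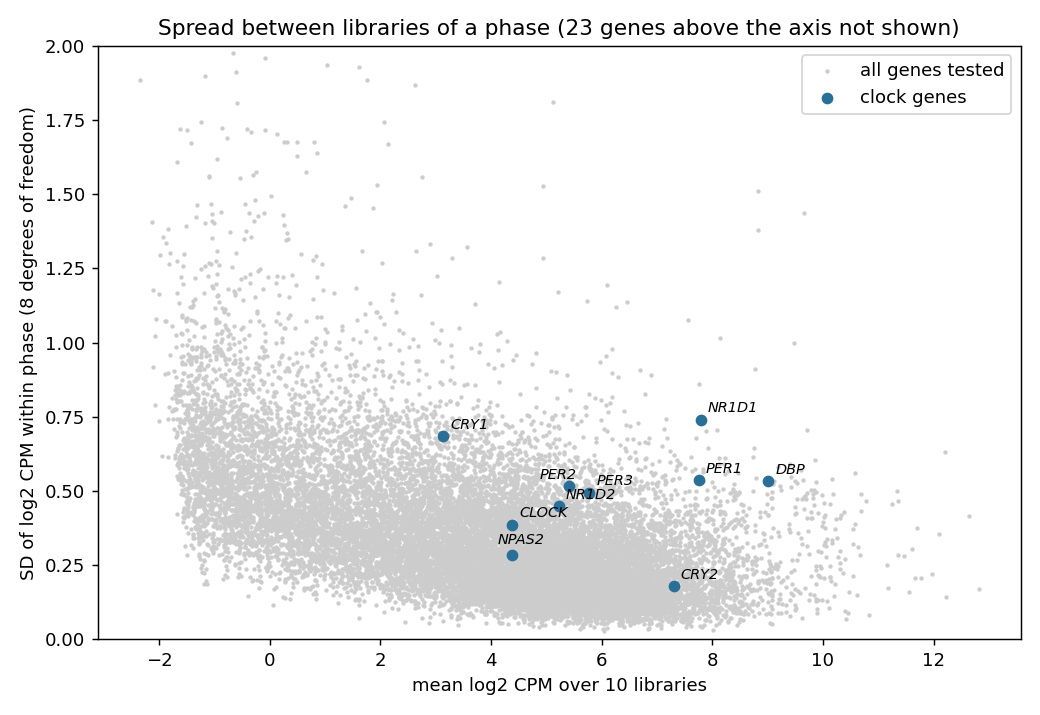
SD of log2 CPM within phase (pooled over both phases, 8 degrees of freedom) against mean log2 CPM for all genes tested (grey) and the 10 clock genes (blue); genes above 2 are left off. NR1D1 (0.74), PER1 (0.54) and DBP (0.53) lie above the median of all genes tested (0.31), and CRY2 (0.18) lies below it.

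The spread was not one common shift. Follicular 1 was the lowest follicular library for 8 of the 10 members, all but CLOCK and NPAS2, and luteal 1 was the lowest luteal library for 7, all but PER3, CRY1 and DBP. At the other end follicular 5 was the highest follicular library for PER2, PER3, CRY1 and NR1D2, and luteal 5 was the highest luteal library for CLOCK, NPAS2, PER2, PER3 and NR1D2. Luteal 4 was the highest luteal library for PER1, CRY2, NR1D1 and DBP and the lowest for PER3 and CRY1. CRY1 thus ran opposite to PER1 and NR1D1 in luteal 1, where CRY1 reached 25.3 CPM while PER1 and NR1D1 were at their lowest of all libraries. CRY2 and PER3 lay close to their luteal means there, at -0.10 and -0.16 in log2 CPM.

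**Figure D4:**
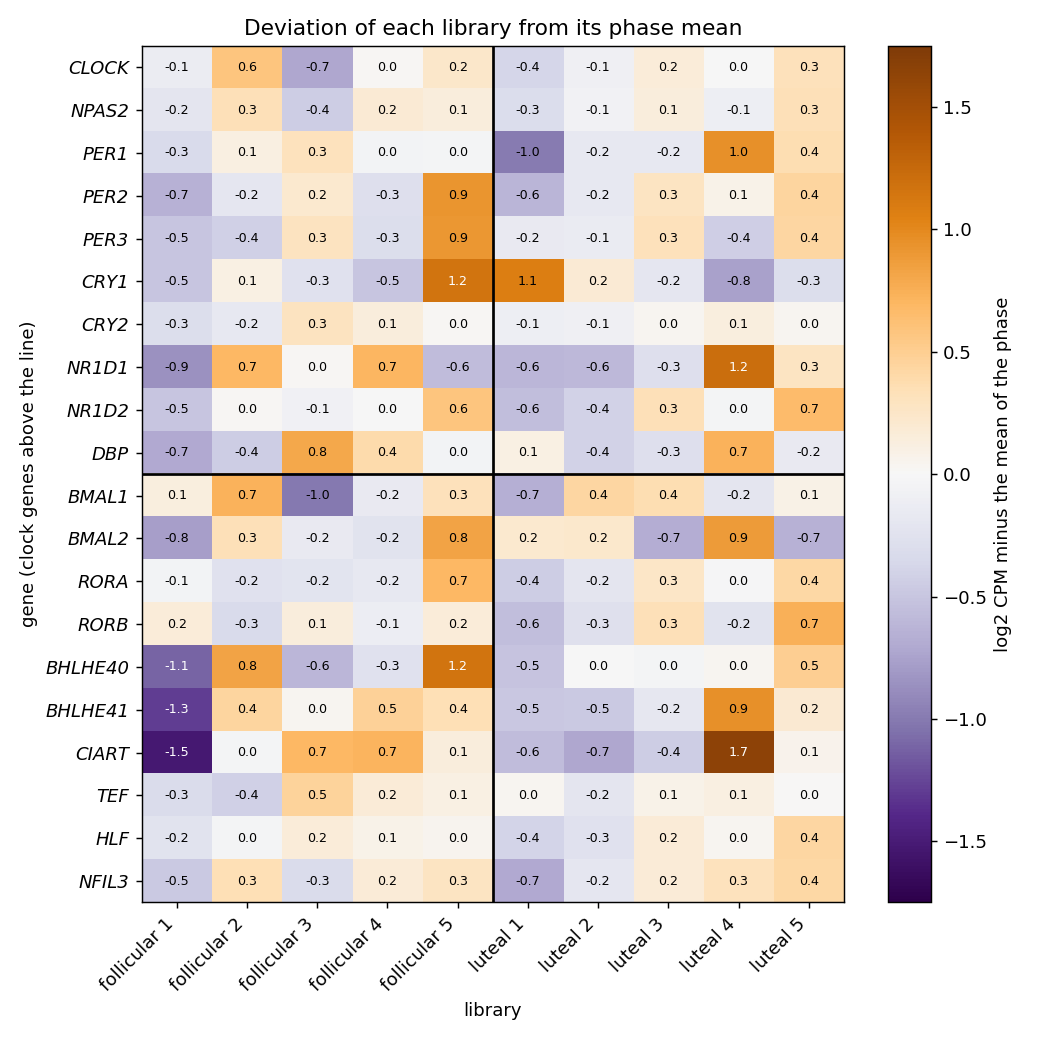
Log2 CPM of each library minus the mean of its phase for the clock genes (above the line) and 10 other transcription factors of the clock (below), orange for higher and purple for lower. Follicular 1 is below its phase mean for all 10 clock genes, and luteal 4 is above it for PER1, NR1D1, DBP, BHLHE41 and CIART, with CIART 1.65 above.

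To describe which genes moved together, log2 CPM was centred on the mean of each phase and correlated over the 10 libraries, with exact permutation tests within phase and adjustment over the 45 pairs. There were 3 pairs past an adjusted p of 0.05, all positive. For CLOCK and NPAS2 r was 0.94 (exact permutation p = 0.000278, adjusted p = 0.0125, n = 10 libraries; rho = 0.93, exact permutation p = 0.00125). For PER2 and NR1D2 r was 0.88 (exact permutation p = 0.000903, adjusted p = 0.0203; rho = 0.78, exact permutation p = 0.00965). For CRY2 and DBP r was 0.88 (exact permutation p = 0.00292, adjusted p = 0.0438; rho = 0.83, exact permutation p = 0.0203). Without the 2 libraries farthest from the median of the first gene r was 0.91, 0.83 and 0.75. These pairs make up 6.67% of the 45, and of all pairs of genes tested 6.33% had an absolute r as high, so their number is near the background.

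No pair passed by Spearman's rho, with adjusted p of 0.0563, 0.109 and 0.130, or without follicular 1 and 3, where 720 orders remain. The call of CLOCK and NPAS2 was lost without follicular 3, luteal 3 or luteal 5 (adjusted exact permutation p = 0.0677, 0.0521 and 0.0625), with r from 0.91 to 0.96 over all single libraries left out. That of PER2 and NR1D2 was lost without follicular 5, luteal 3, luteal 4 or luteal 5 (r from 0.85 to 0.91). That of CRY2 and DBP was lost without any single library other than luteal 1 (r from 0.80 to 0.92). PER2 and PER3 came next (r = 0.86, exact permutation p = 0.00458, adjusted p = 0.0516; rho = 0.83, exact permutation p = 0.00847), at 0.68 without follicular 1 and 5. PER1 and NR1D1 had r = 0.75 (exact permutation p = 0.0134, adjusted p = 0.101; rho = 0.78, exact permutation p = 0.0151), at 0.62 without luteal 1 and 4. The negative pair of largest size was PER1 and CRY1 (r = -0.61, exact permutation p = 0.0706, adjusted p = 0.353; rho = -0.36, exact permutation p = 0.353), and it was -0.01 without luteal 1 and 4, so it rests on those 2 libraries.

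With the 11 other transcription factors of the loops 110 pairs were compared, and 0 passed after adjustment, while 27 had an exact p under 0.05. These are 24.5% of the 110, and over all genes tested 15.5% of the pairs with the same factors had an exact p under 0.05. The lowest exact p was that of CRY2 and CIART (r = 0.80, exact permutation p = 0.000486, adjusted p = 0.0535; rho = 0.82, exact permutation p = 0.00229). That r was 0.73 without follicular 1 and 3. CIART had r = 0.86 with DBP and 0.83 with NR1D1, and from -0.29 to 0.75 with the other members. CRY2 and DBP both ran with the D-box factor TEF. For CRY2 and TEF r was 0.92 (exact permutation p = 0.00458, adjusted p = 0.0621; rho = 0.88, exact permutation p = 0.0139). For DBP and TEF r was 0.85 (exact permutation p = 0.00819, adjusted p = 0.0621; rho = 0.92, exact permutation p = 0.00361). BMAL1 ran with CLOCK (r = 0.86, exact permutation p = 0.00736, adjusted p = 0.0621; rho = 0.64, exact permutation p = 0.0744). It ran against DBP (r = -0.75, exact permutation p = 0.024, adjusted p = 0.13; rho = -0.82, exact permutation p = 0.00972). Follicular 3 had the lowest BMAL1 level, 8.23 CPM, and the highest DBP level, 1029 CPM. NR1D1 ran with BHLHE41 (r = 0.84, exact permutation p = 0.00257, adjusted p = 0.0621; rho = 0.93, exact permutation p = 0.000903). Without the 2 libraries farthest from the median of the member, r was 0.86 for CRY2 and 0.84 for DBP with TEF. It was 0.61 for CLOCK and -0.61 for DBP with BMAL1, and 0.73 for NR1D1 with BHLHE41. The other members did not share one direction with BMAL1. Over all 10 libraries r was 0.75 for NPAS2, 0.30 for NR1D2, 0.15 for PER2 and 0.04 for PER1 and for CRY1. It was -0.02 for PER3, -0.04 for NR1D1 and -0.57 for CRY2.

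**Figure D5:**
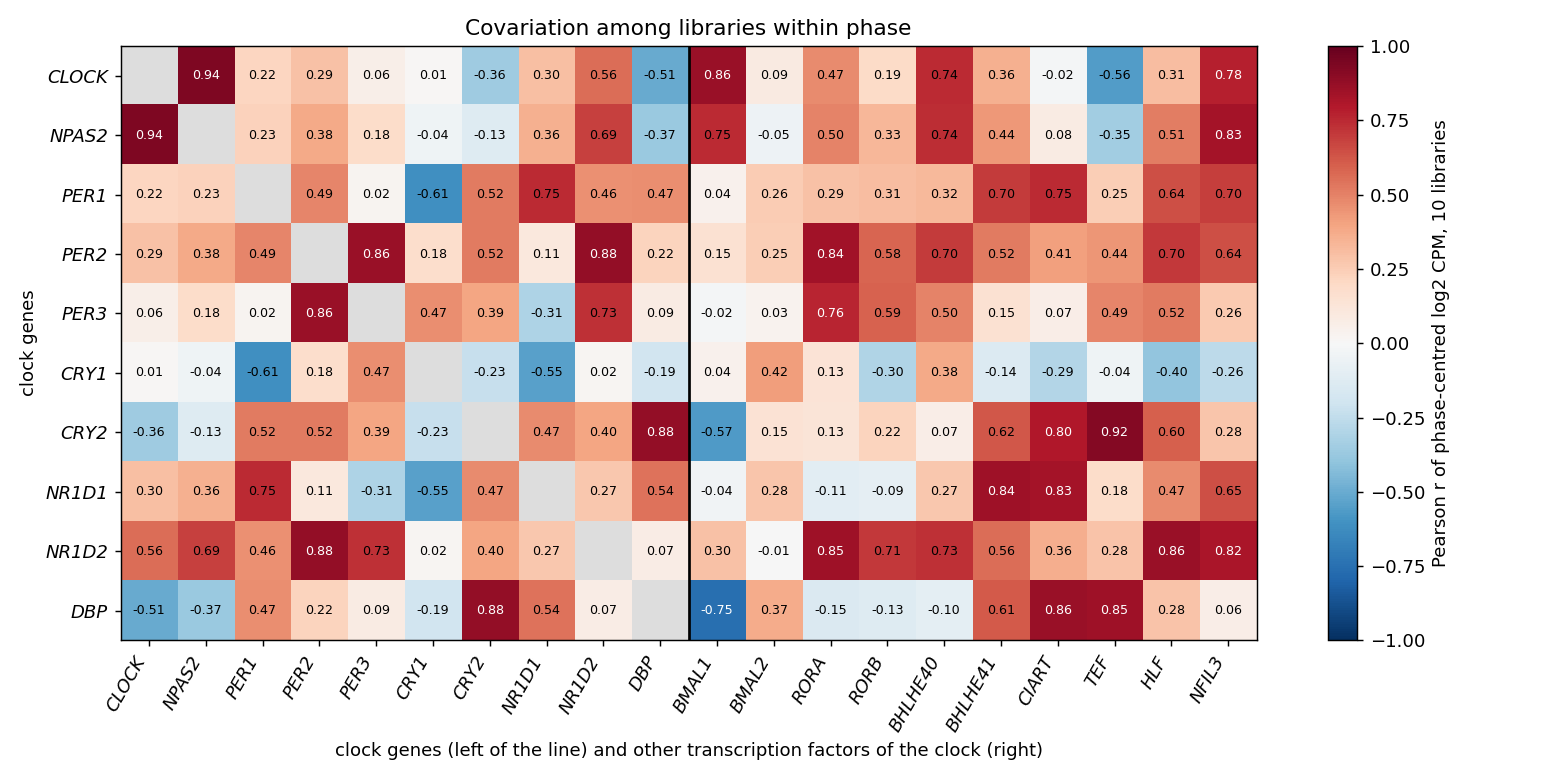
Pearson r of phase-centred log2 CPM over 10 libraries between the clock genes (rows) and the clock genes and 10 other transcription factors of the clock (columns), red for positive and blue for negative; grey cells are a gene with itself. CLOCK with NPAS2 (0.94) and PER2 with NR1D2 (0.88) are high. CRY2 and DBP are high with TEF (0.92 and 0.85) and with CIART (0.80 and 0.86). DBP runs against BMAL1 (-0.75), while NR1D1 and NR1D2 have -0.04 and 0.30 with it.

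The first principal component of the phase-centred values held 48.4% of their variance over all genes, and the members differed in how they ran with it, from r = 0.84 for NR1D2 to -0.35 for DBP. Against the ribosomal protein score r was -0.74 for NR1D2, -0.72 for NPAS2, -0.71 for CLOCK, -0.69 for PER2, -0.68 for PER3 and -0.52 for CRY1. Against the same score r was 0.41 for DBP, 0.15 for NR1D1, 0.13 for CRY2 and 0.02 for PER1. Its lowest exact permutation p was 0.0149 for NR1D2, adjusted p = 0.147 over 150 relations (rho = -0.72, exact permutation p = 0.0158; r = -0.48 without follicular 5 and luteal 5). As measured, the median absolute r was 0.37 over the 45 pairs and 0.45 over all pairs of genes tested, and 13.3% of the 45 pairs against 23.4% of all pairs had an absolute r of at least 0.7. After the component had been taken out of every gene, it was 0.55 over the 45 pairs and 0.32 over all pairs, and 24.4% of the 45 pairs against 8.27% of all pairs reached 0.7. Taking out the ribosomal protein score gave 0.55 and 0.32. The order of members and background thus turned with this step. Of the 45 pairs 35 had r above 0 as measured and 26 after the component was taken out. CLOCK with PER3 went from r = 0.06 (exact permutation p = 0.898; rho = 0.27, exact permutation p = 0.498) to -0.97. As measured, that r was 0.70 without follicular 2 and 3. Both genes ran with the component that was taken out (r = 0.75 for CLOCK and 0.70 for PER3). The value of -0.97 was not followed with libraries left out. CRY2 and DBP had r = 0.88 as measured and 0.92 after the component was taken out, while CLOCK with NPAS2 had 0.85 and PER2 with NR1D2 0.69, neither past the threshold (adjusted exact permutation p = 0.134 and 0.0835). The part of the ribosomal protein genes and of depth in these pairs was not tested beyond this.

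Markers of cell types and responses were followed as list scores, the mean log2 CPM of those genes of a list that were tested. Over 15 library measures and 10 members, 150 relations, 1 passed after adjustment and 31, or 20.7%, had an exact p under 0.05. Over all genes tested 19.2% of the relations with these measures did, and 1.56% had a p as low as the one that passed here (0.667% of the 150), so both shares lie near or below their background. NR1D2 ran against the list of ependyma and tanycytes, the cells lining the third ventricle (r = -0.95, exact permutation p = 0.000208, adjusted p = 0.0312; rho = -0.94, exact permutation p = 0.000347; r = -0.89 without follicular 5 and luteal 5). By rho the call was lost, with an adjusted exact permutation p of 0.0521. All 8 markers of that list were tested, 3 of them averaging higher in luteal libraries and none at 0, and their summed level was 1303 to 1704 CPM in follicular and 1418 to 1910 CPM in luteal libraries. Against the same list r was -0.84 for PER2, -0.76 for PER3 and for NPAS2 and -0.66 for CLOCK. Their adjusted exact permutation p were 0.115, 0.147, 0.167 and 0.226. The other members had r from -0.26 to 0.15. With the suprachiasmatic nucleus and microglia lists NR1D2 had r = -0.83 and -0.76 (adjusted exact permutation p = 0.144 and 0.115). Only 6 of the 10 suprachiasmatic nucleus markers passed the filter and enter that score, which leaves out VIP, PROK2, NMS and PROKR2. NR1D2 also ran with 9 glucocorticoid responsive genes (r = 0.92, exact permutation p = 0.00181, adjusted p = 0.0903; rho = 0.89, exact permutation p = 0.00458), and PER2 did so with r = 0.81 (exact permutation p = 0.00556, adjusted p = 0.115; rho = 0.75, exact permutation p = 0.017). The summed level of those genes was 444.8 to 871.3 CPM in follicular and 362.8 to 1083 CPM in luteal libraries. CRY1 ran with the 8 neuron markers (r = 0.88, exact permutation p = 0.00132, adjusted p = 0.0903; rho = 0.90, exact permutation p = 0.00215), whose sum was 1349 to 1477 CPM in follicular and 1124 to 1534 CPM in luteal libraries. Without the 2 libraries farthest from the median of the member these last 3 values of r were 0.86, 0.74 and 0.84. CRY1 ran with the 8 astrocyte markers as well (r = 0.78, exact permutation p = 0.014, adjusted p = 0.147; rho = 0.89, exact permutation p = 0.00313). That r was 0.83 without follicular 5 and luteal 1. CRY1 and the pars tuberalis list had r = -0.51 (exact permutation p = 0.194, adjusted p = 0.492; rho = -0.53, exact permutation p = 0.125). PER3 had r = -0.52 with that list (exact permutation p = 0.0131, adjusted p = 0.147; rho = -0.77, exact permutation p = 0.00528), and -0.63 without follicular 5 and luteal 5. PER1 had 0.68 and NR1D1 0.59 (adjusted exact permutation p = 0.492 and 0.361). These were -0.20 without luteal 1 and 4 and -0.03 without follicular 4 and luteal 4. The other members had r from -0.19 to 0.36 with it. The part of these cells and responses in the levels of the clock genes was not tested. Between phases 0 of 14 library measures differed after adjustment, and 2 lists, endothelium and choroid plexus, did so at an exact permutation p under 0.05 (0.0159 and 0.0317, adjusted p = 0.222 for both).

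Targets of CLOCK and NPAS2 other than the CRY genes were averaged into a score, the mean of the standardised values of PER1, PER2, PER3, NR1D1, NR1D2 and DBP. These 6 genes did not share one pattern, with r from -0.31 for PER3 and NR1D1 to 0.88 for PER2 and NR1D2. Of 11672 other named genes with at least 5 CPM, those most like this average over the 10 libraries were GOLGA5 (r = 0.97), ZNF783 (0.95), PLEKHA6 (0.94), CHD8 (0.94), BRD8 (0.94), HSPA2 (0.94), UPF1 (0.93), USP4 (0.93), CDKN1A (0.92) and PRPF38A (0.92). None is a gene of the clock list. Of the clock list USP2, a ubiquitin protease, stood at place 57 (r = 0.86), HLF at 81 (0.84), BHLHE41 at 112 (0.81), CSNK1D, a kinase of the PER proteins, at 113 (0.81) and CIART at 171 (0.79), while BMAL1 had r = -0.08. These are descriptions of 10 libraries that share the common component above, and no test was made of them.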

How the data were processed

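The authors deposited raw read counts: 1 table gives, for every gene and library, a whole number of reads. Per the submitters' processing notes the tools included featureCounts 2.0.0, TopHat2 2.1.1, Bowtie2 2.3.5.1, and also SAMtools 1.9, FastQC and bcl2fastq 2.20, listed without order or settings. Per the labels' protocols the library kit was stranded. Genome build, strand setting and treatment of multi-mapping reads are not given in the sources used here. Of the gene identifiers 31873 (94.4%) were found in a RefSeq gene table (assembly ARS-UI_Ramb_v3.0), used for names and neighbours only.

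Counts were analysed in R 4.3.3 with the two-sided quasi-likelihood test of edgeR 4.0.16 over the 10 libraries together, modelling phase alone, with filterByExpr (minimum count 10, minimum total 15), TMM scaling and Benjamini-Hochberg adjustment over 18276 genes. Intervals are 95% intervals of that fit. DESeq2 1.42.0, limma 3.58.1 and other settings were alternatives. Correlations were taken on log2 CPM (prior count 2), with all 14400 orders within phase. On simulated counts over 18154 genes edgeR found 77% of the 2-fold changes and 100% of the 4-fold changes. Each gene was drawn independently there, so these rates need not hold for the real libraries.

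Each library is a mix of 2 ewes, so p-values reflect how mixes of different ewes vary. No pair of libraries agreed within sampling noise. The 22 identifiers without a symbol held at most 0.000291% of a library's reads. The members and lists were chosen with earlier results of these data known. Named were all members, the 11 transcription factors of the loops, the 6 other list genes of smallest p and the 10 genes most like the targets. The values of 2 of these genes, which stay in the counts, are not reported here. FBXL21 was not analysed here.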

Additional observations from a re-analysis of the deposited data

Results flagged for a closer look

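In each phase the highest and the lowest library of 27 named clock genes were set against the others by the gap to the nearest library divided by the range of the phase. Of 54 groups of 5 libraries 3 passed Dixon's 95% limit of 0.71, where chance gives about 1 in 20, or 2.7. Follicular 5 was far above the other follicular libraries for CRY1 (14.0 CPM against at most 6.79 CPM) and for RORA (14.3 CPM against at most 8.50 CPM). Luteal 4 was far above the other luteal libraries for CIART (48.2 CPM against at most 16.0 CPM).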

How the results depend on the processing

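Over 23 alternatives no clock gene passed the test except under limma-voom with quality weights, where PER3 (log2 fold change 0.67), CRY1 (1.31) and NR1D1 (-0.94) did. The direction turned for PER1 with those weights (-0.052) and without luteal 4 (-0.15; range -0.15 to 0.34 leaving out 1 library at a time), and for NR1D2 with the ribosomal protein score as a covariate (-0.11). Of all genes, DESeq2 called 35, quality weights 5867 (13 of the clock list) and the first principal component as a covariate 5114 (11 of the clock list). That component was computed from phase-centred values and so takes out spread within phases by construction. Leaving out 1 library gave 0 to 1 genes, the 1 being without luteal 4. The number of pairs of clock genes past the threshold ran from 0 (without luteal 3 or luteal 5) to 4 (without luteal 1), with 1 without follicular 5, and was 0 by Spearman and 0 without follicular 1 and 3; fewer libraries leave fewer orders. The cause of the other changes was not tested.

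With the replicate number as a block edgeR called 0 genes and 0 clock genes (adjusted p 0.143 to 0.951; CRY1 log2 fold change 0.91). The ewes differ between libraries, so the numbers do not pair animals. Same-numbered deviations had r from -0.33 to 0.63, and 3 of 5 follicular libraries correlated best with their own number. Whether same-numbered libraries share anything else, such as an order of handling, is not given in the labels and was not tested.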
